A study of Mus musculus with 48 samples.

Results

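The end joining genes described here are the 10 mouse genes Xrcc6, Xrcc5, Prkdc, Dclre1c, Polm, Poll, Xrcc4, Lig4, Nhej1 and Polq, which encode the proteins that rejoin the ends of broken DNA. They were found by gene symbol, a rule that uses no measured value. All 10 were found among the 55421 genes of the deposited count table. All 10 also passed the filter on low counts that kept 12456 genes for testing.

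The measurements come from 48 single 2-cell mouse embryos, 24 of the group WT and 24 of the group K49A, the name of a substitution of a single amino acid in protamine 1 according to the series title. Protamine 1 is a small basic protein that replaces histones and compacts the sperm genome. Each embryo was sequenced in its own well with Smart-seq2, which amplifies full-length polyadenylated RNA from single cells. All embryos were of the C57BL6 strain and were taken 26 to 28 hours after fertilization. The labels do not give which parent carried the substitution, whether embryos shared a litter or a father, or what "dot" means in the titles of K49A replicates 22, 23 and 24. Each embryo was counted as 1 replicate, and the p-values measure the spread between embryos, which can include siblings.

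Non-homologous end joining begins when the Ku ring, made of the Xrcc6 and Xrcc5 proteins, slides onto a broken DNA end and recruits the kinase DNA-PKcs, the product of Prkdc. The nuclease Artemis (Dclre1c) trims ends, the polymerases Polm and Poll fill gaps, and the Xrcc4, Lig4 and Nhej1 proteins hold and seal the ends. Polq drives a separate, microhomology-based form of end joining. In the first cell cycles the embryo depends on proteins and transcripts stored in the oocyte, and sperm chromatin, which passes through a stage with DNA breaks during sperm formation, is repaired by the egg.

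Depth decided which embryos could be used. Libraries with at least 100000 counts were tested, 12 WT with 421301 to 5309505 counts (median 3787533) and 17 K49A with 105627 to 4947276 (median 4034654). The 19 other libraries held at most 39135 counts. Among them the 12 WT libraries held 22 counts of the end joining genes in 57024 counts, all in 2 libraries, and the 7 K49A libraries held 0 in 1836. The 10 WT and 14 K49A libraries that reached 1000000 counts and 12000 detected genes are called deep here. The tested libraries that were not deep were WT replicates 5 and 10 and K49A replicates 3, 14 and 22. Of the markers of the 2-cell stage, 12 of 12 passed the filter (summed level 462 to 2285 CPM in WT and 90.7 to 2375 CPM in K49A), as did 12 of 12 oocyte markers (2627 to 12751 and 1319 to 13690 CPM), where CPM are counts per 1000000 after scaling. The substitution cannot be read from gene counts, so the group labels were not checked on Prm1 itself.

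Levels of different genes were compared in TPM, a unit of relative transcript number that takes transcript length into account. The order of median TPM over the 29 embryos began with Polm (26.6) and Nhej1 (20.6). Xrcc6 (5.78), Xrcc4 (5.29), Poll (5.06) and Polq (4.49) followed, and Xrcc5 (1.63), Lig4 (1.32), Dclre1c (0.67) and Prkdc (0.55) came last. The Ku partners Xrcc6 and Xrcc5, and the ligase partners Xrcc4 and Lig4, stood at different levels in TPM. The partners Prkdc and Dclre1c did not, with medians of 0.55 and 0.67 and overlapping spreads. The middle 50% of the embryos held 2.12 to 13.01 TPM of Xrcc6 and 0.40 to 2.06 of Xrcc5. For Xrcc4 and Lig4 these ranges were 3.07 to 10 TPM and 0.43 to 1.95 TPM. In CPM, which takes no account of length, the medians of Xrcc4 and Lig4 were 4.88 and 5.02. The TPM difference between Xrcc4 and Lig4 thus rests on the length correction. Xrcc6 and Xrcc4 share exon bases with genes on the opposite strand, whose part in these levels was not tested. Between neighbours in the TPM order, the middle 50% of the embryos did not overlap only from Nhej1 to Xrcc6. There Nhej1 was higher in 25 of 29 embryos. Polm exceeded Nhej1 in 16 embryos and was below it in 12, so these neighbours did not differ beyond their spread. Among the 30892 genes with a count in any tested library, the members ranked from percentile 54.7 (Prkdc) to percentile 88.8 (Polm).

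The gene with the highest median was not the same in both groups. In WT the highest median TPM was that of Nhej1 (28.9), ahead of Polm (22.7), while in K49A it was that of Polm (34.6), ahead of Nhej1 (19.99). These are medians of spreads that overlap, and the difference in order was not tested. TPM per count varied between embryos for the same gene. For Xrcc4 in WT replicate 10, 2 counts corresponded to 40.5 TPM, so low counts are given in CPM below. The mean in place of the median left 3 of the 10 genes at the same rank.

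**Figure D1:**
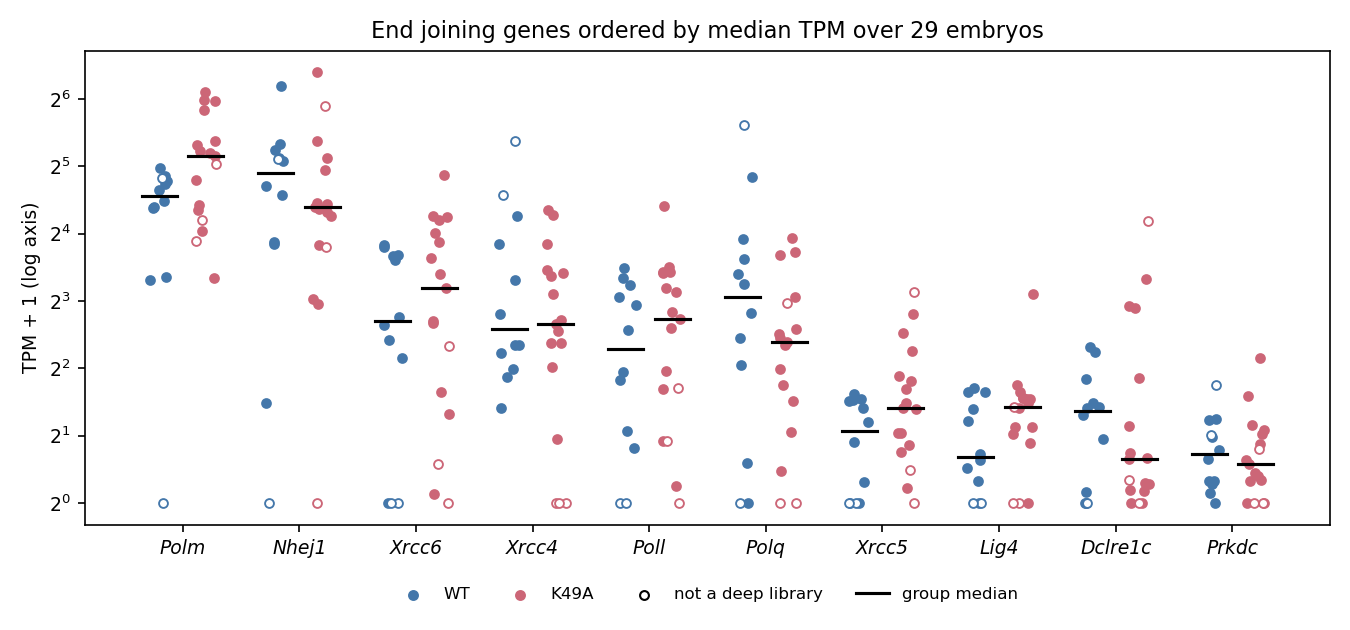
Level of each end joining gene in each of 29 single 2-cell embryos, in TPM + 1 on a log axis, with genes ordered by their median over both groups, points for embryos (open where the library was not deep) and bars for group medians. Polm and Nhej1 stood highest (26.6 and 20.6 TPM), and Prkdc and Dclre1c lowest (0.55 and 0.67 TPM).

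Over all 12456 tested genes, K49A against WT gave 0 calls higher and 2 calls lower at an adjusted p of 0.05 (edgeR quasi-likelihood test, Benjamini-Hochberg), which is 0.0161% called. None of the 10 end joining genes was called, 0 higher and 0 lower, and DESeq2 and limma voom also called 0, against 0.698% and 0.321% of all genes. At an unadjusted p of 0.05, 1 member passed in edgeR, Polm, against 7.73% of all genes. In DESeq2, in limma voom and in edgeR with RLE scaling 2 members each passed, against 12%, 11.8% and 9.47% of all genes. The log2 fold change, K49A minus WT, was positive for 5 members and negative for 5, against 58.4% positive over all genes, or positive for 8 and negative for 2 with RLE scaling in place of TMM, against 62%. In limma voom 7 were positive, against 54.9%. The median with TMM was 0.12 over the members and 0.11 over all genes. In an embryo, fewer intact cells and less RNA per cell cannot be told apart in these libraries.

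**Figure D2:**
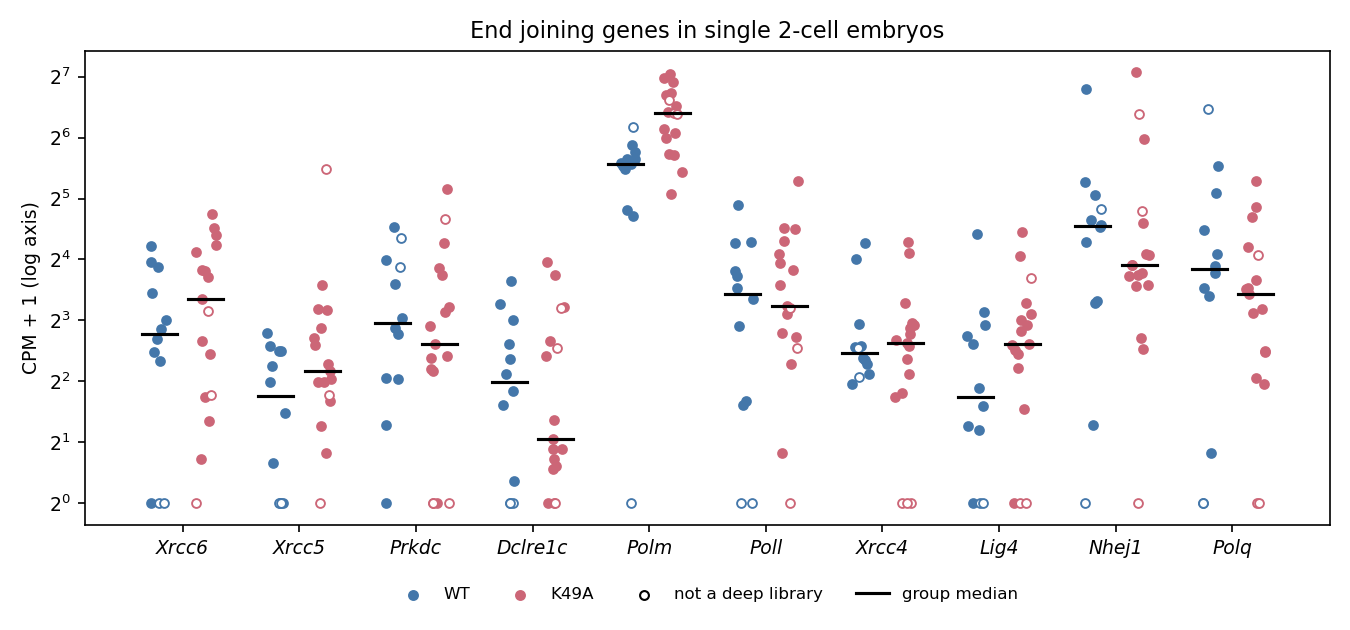
Level of the 10 end joining genes in each tested embryo, in CPM + 1 on a log axis, for 12 WT (blue) and 17 K49A (red) embryos, with open points for libraries that were not deep and bars for group medians. The Polm medians were 46.7 CPM in WT and 83.4 in K49A, and points at the bottom are embryos with 0 counts.

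Xrcc6 and Xrcc5 encode the Ku70 and Ku80 subunits of the Ku ring. Xrcc6 (ENSMUSG00000022471, chr15:81987835-82040085, plus strand, GRCm38) ranged in WT from 0 to 17.7 CPM (median 5.83) and in K49A from 0 to 25.7 CPM (median 9.25). WT replicates 5, 10 and 19 and K49A replicate 22 were at 0. The 4 highest K49A embryos lay above every WT embryo, and the groups otherwise overlapped. At least 5 K49A embryos above every WT embryo were found for 9.10% of all tested genes, so patterns with a lower minimum were no rarer. K49A minus WT, the log2 difference of Xrcc6 came to 0.59 ± 0.57 (SE), with a 95% interval from -0.55 to 1.74 and an adjusted p of 0.905 in edgeR. Xrcc6 shares 344 exon bases with Desi1 on the opposite strand, and whether counting used strand is not stated in the labels, so its counts can include Desi1 reads.

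Xrcc5 (ENSMUSG00000026187, chr1:72307421-72394952, plus strand) ranged from 0 to 5.93 CPM in WT (median 2.37) and from 0 to 43.7 CPM in K49A (median 3.50). WT replicates 5, 10, 19 and 24 were at 0, and 5 of 17 K49A embryos lay above every WT embryo, a pattern that 9.10% of all tested genes showed at least as strongly. The highest value belonged to K49A replicate 14, a library that was not deep and held 11 Xrcc5 counts. Its log2 fold change of 1.25 ± 0.65 (SE) had a 95% interval from -0.07 to 2.56 and did not pass the test (edgeR, adjusted p = 0.674). It was 0.81 without that embryo and 0.66 in the deep libraries (adjusted p = 0.959, edgeR).

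The promoters of both Ku genes are shown because the Ku genes are compared with each other below and because they differ in the motifs they hold. Each stretch covers 250 bases before to 50 after the RefSeq start (GRCm38.p6) on the gene's strand, and capitals mark matches on either strand to 4 motifs. The GC box was searched as GGGCGG, the CCAAT box by the letters of its name, the TATA box as TATAAA and the E-box as CACGTG, and no pair of these motifs overlaps within a stretch shown.
Xrcc6 (chr15:82016119-82016418, plus strand): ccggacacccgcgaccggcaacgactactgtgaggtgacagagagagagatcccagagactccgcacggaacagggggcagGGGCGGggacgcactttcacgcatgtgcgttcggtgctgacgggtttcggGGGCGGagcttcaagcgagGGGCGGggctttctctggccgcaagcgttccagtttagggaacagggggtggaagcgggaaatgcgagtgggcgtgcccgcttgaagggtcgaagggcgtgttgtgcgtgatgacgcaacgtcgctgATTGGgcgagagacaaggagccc
Xrcc5 (chr1:72307171-72307470, plus strand): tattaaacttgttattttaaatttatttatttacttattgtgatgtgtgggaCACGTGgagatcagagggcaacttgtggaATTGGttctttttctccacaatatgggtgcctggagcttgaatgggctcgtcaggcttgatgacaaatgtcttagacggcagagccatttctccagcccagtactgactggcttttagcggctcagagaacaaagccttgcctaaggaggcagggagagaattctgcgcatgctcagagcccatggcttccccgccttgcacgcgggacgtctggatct
The Xrcc6 stretch held 3 GC boxes and 1 CCAAT box with 64.3% GC, and the Xrcc5 stretch held 1 CCAAT box, 1 E-box and no GC box with 48% GC. The RefSeq start of Xrcc6 used here lies inside the longer annotated gene given above. Over 32817 promoters of the same length, 35.6% held a GC box, 37.4% a CCAAT box, 13.6% a TATA box and 7.15% an E-box. A match describes the letters only.

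Across the 29 embryos the Ku genes varied together. Their log2(CPM + 1) values gave Pearson r = 0.60 (adjusted p = 0.00132 over 3 pairs) and Spearman rho = 0.53 (adjusted p = 0.0108), by 2-sided permutation tests with 100000 resamples. WT replicates 5, 10 and 19 and K49A replicate 22 had 0 counts of both genes, and 3 of these 4 embryos had libraries that were not deep. In the 24 deep libraries r was 0.48 (adjusted p = 0.0541) and rho 0.37 (adjusted p = 0.233, permutation tests), neither below 0.05. Without the 2 embryos farthest from the Xrcc6 median r was 0.49 (adjusted p = 0.0302) and rho 0.42 (adjusted p = 0.0884, permutation tests). The part of depth in this relation was not tested further.

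Within groups r was 0.79 in the 12 WT embryos and 0.42 in the 17 K49A embryos, and the difference between these values was not tested. The WT embryos include replicates 5, 10 and 19, which had 0 counts of both genes. The 4 plate columns with 6 tested embryos each gave r of -0.38, 0.81, 0.89 and 0.69, so the relation did not hold in plate column 3. Embryos at 0 for both genes lay in column 4 (r = 0.81, WT replicate 10 and K49A replicate 22) and column 5 (r = 0.89, WT replicate 5). The part of these zeros in r was not tested. Over the 29 embryos rho of the 45 pairs of members ran from -0.38 to 0.53 with a median of 0.02, the Ku pair being highest. In the deep libraries it ran from -0.79 (Xrcc4 with Polq) to 0.51 (Prkdc with Polq), and Poll with Xrcc4 (0.38) was also above the Ku pair (0.37). These values share the same libraries and are given as a description.

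**Figure D3:**
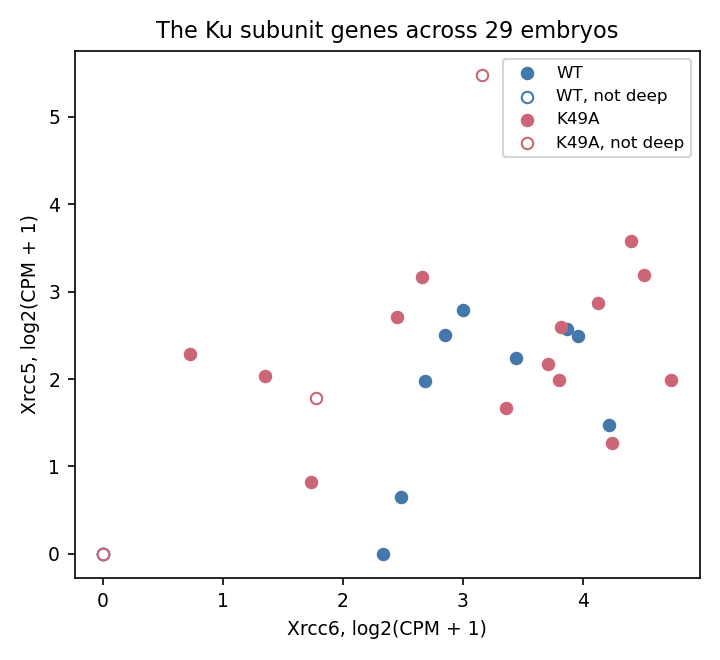
Xrcc5 against Xrcc6, both in log2(CPM + 1), with 1 point per embryo for 12 WT and 17 K49A embryos and open points for libraries that were not deep. Embryos without counts of either gene lie on top of each other at the origin, and K49A replicate 14 lies far above the others on the Xrcc5 axis (43.7 CPM).

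Prkdc (ENSMUSG00000022672, chr16:15637866-15842235, plus strand) encodes DNA-PKcs, the large kinase that Ku activates at a break. Its level ran from 0 to 22.3 CPM in WT (median 6.78) and from 0 to 34.8 CPM in K49A (median 5.14). K49A replicates 4, 14, 16 and 22 and WT replicate 20 were at 0, while K49A replicates 5 and 3 stood above every WT embryo, so zeros and high values occurred in the same group. For 9.1% of all tested genes at least 5 K49A embryos stood above every WT embryo, so a pattern with 2 was no rarer. Between the groups Prkdc differed by -0.01 ± 0.65 on the log2 scale (SE, 95% interval -1.31 to 1.302; edgeR, adjusted p = 1.00), or by 0.21 in the deep libraries. The next gene on the other strand, Mcm4, a subunit of the replicative helicase, starts 466 bases from the start of Prkdc and had a log2 fold change of -1.18 ± 0.46 (SE, adjusted p = 0.467, edgeR).

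Dclre1c (ENSMUSG00000026648, chr2:3424131-3464130, plus strand) encodes Artemis, the nuclease that DNA-PKcs activates to open hairpins and trim overhangs. It ranged from 0 to 11.54 CPM in WT (median 2.97) and from 0 to 14.5 CPM in K49A (median 1.08). WT replicates 5, 10 and 19 and K49A replicates 8, 14 and 23 were at 0, and the highest values of the groups were close to each other. The groups differed by -0.04 ± 0.70 on the log2 scale (SE, 95% interval -1.45 to 1.37; edgeR, adjusted p = 0.996). Dclre1c shares 357 exon bases with Suv39h2 on the opposite strand, so part of its counts can come from that gene.

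For this pair of a kinase and its nuclease, r across the 29 embryos was -0.12 (adjusted p = 0.536) and rho -0.10 (adjusted p = 0.603, permutation tests), and in the deep libraries r was -0.10. No relation between these genes was detectable in this number of embryos.

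Polm (ENSMUSG00000020474, chr11:5827860-5838016, minus strand) encodes DNA polymerase mu, which fills gaps at ends that pair poorly or not at all. In WT its level ran from 0 CPM in replicate 10 to 71.4 CPM in replicate 5, with a median of 46.7. In K49A it ran from 32.9 CPM in replicate 23 to 131 CPM in replicate 16, with a median of 83.4. The extreme WT embryos were those whose libraries were not deep, and the deep WT embryos lay between 25.1 and 58.03 CPM. The groups overlapped, yet 10 of 17 K49A embryos stood above every WT embryo, 15 of 17 K49A embryos stood above the WT median and 0 of 12 WT embryos stood above the K49A median. At least 10 K49A embryos above every WT embryo was found for 0.305% of the 12456 genes, and the pattern around the medians for 0.136%. These patterns were chosen after the values were seen.

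The mean of Polm was 42.9 ± 18.3 CPM (SD, n = 12) in WT and 82.2 ± 29.1 CPM (SD, n = 17) in K49A. The log2 fold change was 0.93 ± 0.35 (SE, 95% interval 0.21 to 1.65), with p = 0.0124 and adjusted p = 0.452 in edgeR, so Polm did not pass the test over all genes. In the deep libraries the medians were 46.7 and 77.0 CPM and the log2 fold change was 0.85 (p = 0.00270, adjusted p = 0.728, edgeR). DESeq2 gave 0.97 with an adjusted p of 0.0643, the lowest of any member under any alternative. The difference was positive in 5 of 5 plate columns, by 0.33 to 3.84 in log2(CPM + 1), as for 4.59% of all genes. Without WT replicate 10, left out after its value was seen, it was positive in 5 of 5 by 0.33 to 1.13. Restricted to the 9 WT and 9 K49A embryos whose replicate numbers occur in both groups, the log2 fold change was 0.47 (p = 0.362, edgeR). Plate rows 1 to 4 held WT embryos and rows 5 to 8 K49A embryos, and an effect of the row cannot be told apart from that of the group.

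Markers of other cell types are given beside the Polm values. The summed level of 12 blood markers had a median of 28.5 CPM in WT (15.2 to 62.7) and 99.8 CPM in K49A (7.76 to 734), with 5 of the 12 passing the filter and Hbb-bs, Hbb-bt and Tyrobp at 0 in all embryos. The 10 spermatid markers had medians of 6.98 CPM (2.64 to 38.7) and 11.6 CPM (0.807 to 243), with 2 passing the filter and Akap4 and Smcp at 0. The 12 cumulus and granulosa markers, 3 of them tested, had medians of 45.2 CPM (0 to 104) and 68.0 CPM (20.8 to 248). Single markers of these lists went both ways between the groups. The medians in WT and K49A were 40.1 and 34.4 CPM for Amhr2 and 0.541 and 2.95 CPM for Kitl. They were 3.02 and 2.66 CPM for Cd79a and 3.47 and 13.9 CPM for Cd74. For Prm2 they were 3.49 and 2.52 CPM, and for Oaz3 2.32 and 5.38 CPM. The sums thus do not give amounts of these cell types. The 2-cell markers had medians of 1740 CPM (WT) and 1116 CPM (K49A), and the oocyte markers 5574 and 5299 CPM. Their part in the Polm values was not tested.

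The Polm promoter is shown because Polm had the highest median TPM and the smallest p among the members. Capitals mark the same motifs as above.
Polm (chr11:5837967-5838266, minus strand): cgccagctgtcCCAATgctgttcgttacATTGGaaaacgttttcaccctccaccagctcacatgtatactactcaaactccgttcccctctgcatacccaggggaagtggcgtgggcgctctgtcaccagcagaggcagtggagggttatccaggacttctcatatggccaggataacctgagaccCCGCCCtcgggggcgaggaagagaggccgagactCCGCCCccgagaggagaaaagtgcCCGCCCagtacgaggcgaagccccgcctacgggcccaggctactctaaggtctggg
It held 3 GC boxes and 2 CCAAT boxes, no TATA box and no E-box, with 60.3% GC against a median of 52.7% over all promoters. Promoter entries were found for 8 of the 10 members, 9 entries in all since Lig4 has 2. A GC box was present in 6 of the 9, a CCAAT box in 4, an E-box in 1 and a TATA box in 0.

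Poll (ENSMUSG00000025218, chr19:45552275-45560531, minus strand) encodes DNA polymerase lambda, which fills short gaps with paired ends. Its level ran from 0 to 28.6 CPM in WT (median 9.83) and from 0 to 38.0 CPM in K49A (median 8.40). WT replicates 5 and 10 and K49A replicate 14, all libraries that were not deep, were at 0, and all but 1 of the K49A embryos lay within the WT range. On the log2 scale K49A minus WT was 0.25 ± 0.53 (SE, 95% interval -0.83 to 1.33; edgeR, adjusted p = 0.972). With single embryos left out it ran from 0.024 (without K49A replicate 16) to 0.50 (without WT replicate 20). The highest embryo was K49A replicate 16, which was also the highest for Polm.

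Xrcc4 and Lig4 encode the scaffold and the DNA ligase of the complex that seals the ends. Xrcc4 (ENSMUSG00000021615, chr13:89774027-90089608, minus strand) ran from 2.86 to 18.4 CPM in WT (median 4.51) and from 0 to 18.6 CPM in K49A (median 5.19). It was the single member detected in all 12 WT embryos, and the 3 K49A embryos at 0 were those whose libraries were not deep. Its log2 fold change of -0.07 ± 0.48 (SE) had a 95% interval from -1.03 to 0.90 (edgeR, adjusted p = 0.992). Xrcc4 shares 112 exon bases with Tmem167 on the opposite strand, which differed by 1.28 ± 0.48 on the log2 scale (SE; edgeR, adjusted p = 0.436).

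Lig4 (ENSMUSG00000049717, chr8:9969049-9977686, minus strand) ran from 0 to 20.3 CPM in WT (median 2.35) and from 0 to 20.9 CPM in K49A (median 5.14). WT replicates 5, 10 and 21 and K49A replicates 3, 8 and 22 were at 0, and the highest embryo of each group stood at nearly the same level. For Lig4 the log2 fold change reached 0.57 ± 0.62 (SE, 95% interval -0.69 to 1.83; edgeR, adjusted p = 0.921). With single embryos left out it ran from 0.35 (without K49A replicate 16) to 1.08 (without WT replicate 19). Within plate columns the difference was 0.11 to 1.19 in log2(CPM + 1), positive in 5 of 5, as for 4.59% of all genes. However, column 4 gave -0.18 without WT replicate 10. Lig4 and Abhd13 start 21 bases apart on opposite strands, and the log2 fold change of Abhd13 was 0.01 ± 0.46 (SE, adjusted p = 0.999, edgeR). Xrcc4 and Lig4 gave r = 0.27 (adjusted p = 0.232) and rho = 0.24 (adjusted p = 0.307, permutation tests) over the 29 embryos. Without K49A replicate 14 r was 0.41 (adjusted p = 0.0440, permutation test), and in the deep libraries it was 0.08, so the relation changed with the embryos entered.

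Nhej1 (ENSMUSG00000026162, chr1:74967139-75125200, minus strand) encodes XLF, which forms filaments with Xrcc4 and bridges the ends. It ran from 0 to 110 CPM in WT (median 22.5) and from 0 to 134 CPM in K49A (median 13.96). WT replicate 10 and K49A replicate 14 were at 0, and WT replicate 19 stood far above the rest of its group. The highest K49A embryos were replicate 15, replicate 22 (82.5 CPM, not deep) and replicate 8 (62.0 CPM). Nhej1 differed by -0.01 ± 0.56 on the log2 scale (SE, 95% interval -1.14 to 1.12; edgeR, adjusted p = 0.999), with a sign that turned under 7 of 13 alternatives.

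Polq (ENSMUSG00000034206, chr16:37011786-37095417, plus strand) encodes polymerase theta, the enzyme of microhomology-mediated end joining. It ran from 0 to 87.4 CPM in WT (median 13.3) and from 0 to 38.0 CPM in K49A (median 9.80). WT replicates 5 and 24 stood above every K49A embryo, while WT replicates 10 and 20 and K49A replicates 3 and 22 were at 0. The share of all genes with WT embryos above every K49A embryo was not counted, so this is not read as a trait of Polq. Its log2 fold change was -0.81 ± 0.58 (SE, 95% interval -1.99 to 0.38; edgeR, adjusted p = 0.845), the most negative of the 10. It was -0.33 without WT replicate 5, whose library was not deep, and -0.34 in the deep libraries.

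**Figure D4:**
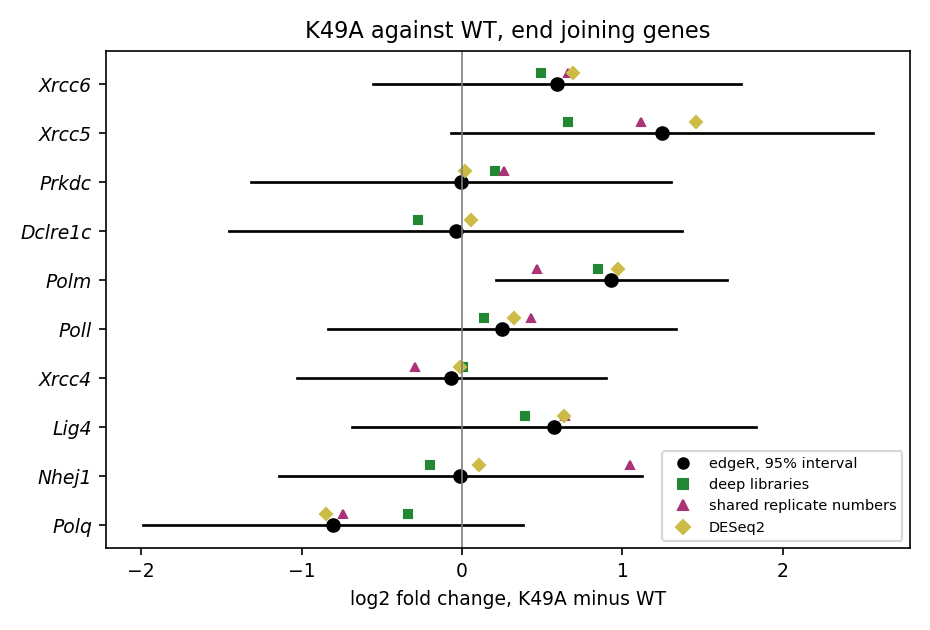
Log2 fold change, K49A minus WT, of the 10 end joining genes, with black points and lines for the edgeR estimate and its 95% interval and coloured symbols for 3 alternatives. The interval lies above 0 for Polm (0.21 to 1.65) and includes 0 for the other 9 genes; the adjusted p of Polm was 0.452.

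Counted over embryos, the summed CPM of the 10 genes ran from 22.5 to 211 in WT (median 133) and from 115 to 249 in K49A (median 167). Polm alone made up a median of 34.5% of this sum in WT and 49.6% in K49A. It was the highest member in 7 of 12 WT and 16 of 17 K49A embryos, so the sum is weighted toward Polm. All 10 genes had a count in 6 of 12 WT and 10 of 17 K49A embryos, and in 6 of 10 and 10 of 14 of the deep ones. The lowest WT embryo was replicate 10, where counts were found for 2 of the 10 genes, Prkdc and Xrcc4. Gaps in detection thus fell mostly on libraries of low total.

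**Figure D5:**
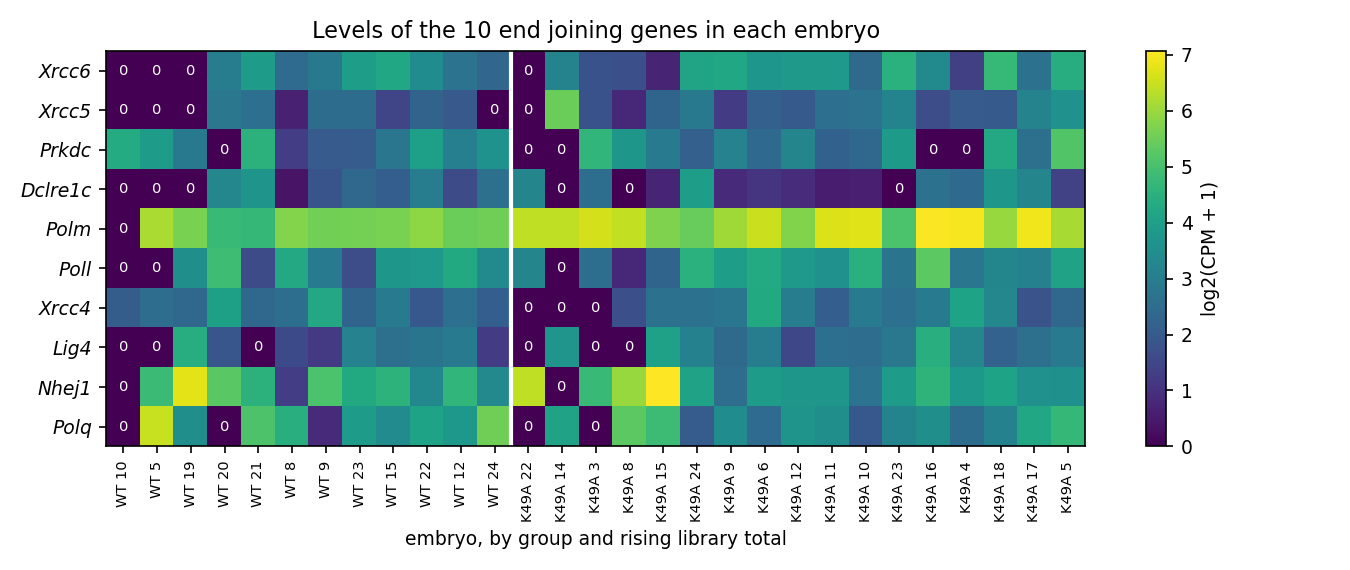
Level of the 10 end joining genes in each tested embryo as log2(CPM + 1), with embryos ordered within WT (left) and K49A (right) by rising library total and 0 printed where no count was found. Zeros lie mostly at the left of each group, where totals are low, and Polm had a count in 28 of 29 embryos.

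The genes whose pattern over the 29 embryos was most like that of the 3 members with the highest median TPM were searched among 7808 genes with a mean of at least 10 CPM. For Polm they were Snx22 (Spearman rho 0.68) and Slc6a7 (0.64). For Nhej1 they were Mrps23 and Thoc7 (0.81 each), and for Xrcc6 Pigm (0.79) and Zgpat (0.77). In the deep libraries, which are part of the same 29 embryos, rho was 0.54 to 0.76 for these 6 genes. As the genes were picked as the highest of 7808, these values are a description only. The rho that such a search gives by chance was not tested. All values share the same libraries and depths.

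A list of 32 accessory end joining genes held factors that sense, process or protect ends. Of these, 28 were tested, 16 with a positive and 12 with a negative log2 fold change (14 and 14 in limma voom). None was called by edgeR, DESeq2 or limma voom (0 each), and an unadjusted p under 0.05 was found for 0, 0 and 1 of them, against 7.73%, 12% and 11.8% of all genes in these fits. Their median was 0.06, against 0.11 over all genes. Paxx, Dntt and Cyren were among those that did not pass the filter on low counts. The smallest p belonged to Parp1, the sensor of strand breaks, with a mean of 22.7 CPM in WT and 14.1 in K49A and a log2 fold change of -0.65 ± 0.43 (SE, adjusted p = 0.812, edgeR). H2afx, the histone variant that is phosphorylated around breaks, had means of 68.1 and 92.7 CPM (0.45 ± 0.37). Lig3, the ligase of alternative end joining, had means of 2.80 and 4.43 CPM (0.69 ± 0.57), and Aptx, which cleans ends after failed ligation, 7.40 and 10.3 CPM (0.49 ± 0.51).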

How the data were processed

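Polyadenylated RNA of single 2-cell embryos was measured with Smart-seq2. The labels give the group of each embryo. The submitters' processing notes name RSEM 1.3.3, STAR 2.7.8a, cutadapt 2.3 and FastQC 0.11.8, with no roles, and the builds GRCm38 and mm10. The table deposited by the authors holds expected counts per gene, which were rounded to whole numbers, a step that changed 0 values. The TPM table deposited by the authors was used for levels between genes and for 2 alternatives. Another deposited table, identical to the TPM table, was not used. RSEM divides reads among near-identical genes, and the annotation release and strand use are not given in the sources used here. The 5 transgene entries held 0 counts and were left out, as were 0 columns of other samples.

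Libraries with at least 100000 counts were tested with the edgeR 4.0.16 quasi-likelihood test (robust, TMM scaling, filterByExpr, R 4.3.3), adjusted over 12456 genes by Benjamini-Hochberg at 0.05. CPM are counts per 1000000 after scaling. The SE is the size of the log2 fold change over the square root of F. Alternatives used DESeq2 1.42.0, limma 3.58.1, other filters and scalings, deeper libraries, plate column, the replicate number as a block, and each of 29 embryos left out. Leaving out embryos for the correlations and WT replicate 10 within plate columns was chosen after seeing the data. The scripts were tested on simulated data. Positions are from GENCODE on GRCm38 (12433 of 12456 tested genes found), and promoters are from RefSeq on GRCm38.p6.

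All 10 members are named. Of each gene list, the 4 genes with the smallest p are named, and of the 3 members with the highest median TPM, the 2 most alike genes. The members and lists were chosen with earlier results of these data known.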

Additional observations from a re-analysis of the deposited data

How the results depend on the processing

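The count of 0 end joining genes called in either direction was found under all 13 alternatives and with each of the 29 embryos left out, except that DESeq2 gave Dclre1c no adjusted p. Over all genes, calls higher in K49A numbered 75 with DESeq2, 26 with limma voom, 661 with no filter on low counts, 7 with a mean of at least 1 CPM, and 2 each with plate column as a factor and with limma on log2(TPM + 1) or log2(TPM + 0.1). Calls lower numbered 12, 14, 465 and 8 in the first 4 of these, 4 in the deep libraries, and 1 with limma on either TPM scale. With embryos left out in turn, 0 to 2 genes were called higher and 2 to 4 lower. The cause was not tested. No pairing of the embryos by replicate number was detectable. Same-number deviations of 9 pairs correlated at -0.27 to 0.22, 2 of them over 0.1, and 1 embryo pair was most alike by its own number. On those embryos 1 gene was called lower with the replicate block and 0 without it, and Polm had a log2 fold change of 0.46 with the block.

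Of 417 member fold changes under the alternatives, 346 kept their sign. The others belonged to 4 genes near 0. Dclre1c was at 0.056 with DESeq2, 0.050 with RLE scaling and 0.064 with log2(TPM + 1), and was not tested in the fits on shared numbers or without the titles with dot. Nhej1 was at 0.11 with DESeq2, 0.088 with RLE, 0.48 with plate column, 0.90 with the replicate block, 1.05 on the same embryos without it, and 0.021 and 0.12 on the TPM scales. Prkdc was at 0.016 with DESeq2 and limma voom, 0.025 with RLE, 0.25 from 500000 counts, 0.21 in the deep libraries, 0.062 without the titles with dot, and 0.27 and 0.26 with and without the block. Xrcc4 was at 0.083 with limma voom, 0.0036 in the deep libraries and 0.014 without the titles with dot. With embryos left out, the ranges were -0.36 to 0.24 for Dclre1c, -0.47 to 0.47 for Nhej1, -0.29 to 0.21 for Prkdc and -0.27 to 0.21 for Xrcc4. For Polm the adjusted p ran from 0.0643 to 1.00 over the 13 alternatives and from 0.361 to 0.660 with embryos left out, with a positive fold change in each. The correlation of Xrcc6 with Xrcc5 was 0.48 in the deep libraries (adjusted p = 0.0541, permutation test). With single embryos left out it was 0.55 to 0.67, and that of Xrcc4 with Lig4 was 0.16 to 0.41. Leaving out single embryos does not remove the embryos with 0 counts of both Ku genes together. The 95% intervals of the members other than Polm reach about 1 log2 unit or more to either side of the estimate, so modest differences were not detectable in these embryos. In counts simulated with these library sizes, edgeR recovered 8 of 47 tested genes changed 2-fold and 32 of 46 changed 4-fold. Most 2-fold changes and some 4-fold changes were thus missed there.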

Other observations

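Homologous recombination, the other main route of break repair, copies the lost sequence from an intact DNA molecule. Of 31 listed genes of this route, 30 were in the count table and 28 were tested, Bard1 and Dmc1 being too low. The log2 fold change, K49A minus WT, was positive for 11 and negative for 17, with a median of -0.03 against 0.11 over all genes. An unadjusted p under 0.05 was found for 2 of the 28 in edgeR, 4 in DESeq2 and 3 in limma voom, against 7.73%, 12% and 11.8% of all genes. Calls numbered 0 in edgeR, 0 in DESeq2 and 1 in limma voom, Rad51d, against 0.0161%, 0.698% and 0.321% of all genes. Rad51d, a factor that acts early in strand exchange, averaged 11.3 CPM in the WT embryos and 33.2 CPM in the K49A embryos (a log2 difference of 1.57 ± 0.54 SE, p = 0.00596, adjusted p = 0.422, edgeR). Mcm9 and Mcm8, whose proteins form a helicase complex, had fold changes of opposite sign, -0.92 ± 0.38 (adjusted p = 0.530, edgeR) and 1.24 ± 0.63 (adjusted p = 0.659, edgeR). Brip1, a helicase that binds Brca1, had means of 7.94 and 17.2 CPM (0.97 ± 0.53, adjusted p = 0.716, edgeR).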
